A study of Mus musculus with 58 samples.

Results

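Tsc22d3, Hif1a, Tcf7l2, Hes1, Junb, Bcl6, Esrra, Rarg and Nr6a1 were grouped here as signal-responsive transcription factor genes. Each carried at least 1 peak of the circadian activator BMAL1 in NIH3T3 fibroblasts or in mouse liver. The 9 genes were chosen by the gene names that the authors gave their BMAL1 peaks, with earlier results of these data known, so the presence of a BMAL1 peak at them is not a finding. They accounted for 9 of 463 BMAL1 peaks in NIH3T3 cells and 8 of 1254 in liver. As 4 entries were the same interval in both lists, these were 13 different sites. CLOCK peaks with a centre within 5 kb of these sites were taken with them, and there were 4 of 1016 in NIH3T3 cells and 0 of 439 in liver. The farthest CLOCK peak inside that window lay 91 bp from its site, and the nearest outside it lay 122998 bp away.

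Chromatin immunoprecipitation with sequencing (ChIP-seq) maps where a protein sits on DNA, and only lists of peak positions were analysed here, in mm9 coordinates with starts counted from 1. The NIH3T3 cells, a mouse fibroblast line, had been treated for 30 min with 100 nM dexamethasone, a synthetic glucocorticoid that sets their cellular clocks to a common phase, then washed and given fresh medium. No NIH3T3 group without dexamethasone was analysed. The NIH3T3 BMAL1 list belonged to 7 libraries taken 12 to 38 h after that treatment and was named for 20 h, and the NIH3T3 CLOCK list belonged to 6 libraries taken at 18 to 38 h. For liver CLOCK there was a single sample from C57/BL6 mice aged 12 to 14 weeks, which the labels call pooled and give no time of day. Liver BMAL1 came from older libraries that the authors processed anew, collected at zeitgeber time 6 (hours after lights on), and the labels used here do not describe those mice. The samples numbered 58, and the 16 NIH3T3 and 24 liver RNA libraries, the 2 RNA polymerase II libraries and the 2 inputs were not analysed here. No list held a height, a score or a value per library, so the depth is unknown, no replicate error can be given, and intervals below cover counting over peaks only. Both BMAL1 lists opened with the same 263 intervals in the same order. All 4 entries that the 9 genes had in both lists were among these (56.8% of the NIH3T3 list and 21.0% of the liver list), so whether the lists detected them independently was not tested.

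BMAL1 and CLOCK form a dimer of basic helix-loop-helix PAS proteins that binds E-boxes, with the core letters CACGTG, and drives rhythmic transcription of clock genes and of many genes outside the clock. The 9 factors were grouped as responsive to other signals, although orphan receptors are among them. TSC22D3, also called GILZ, is induced by glucocorticoids. HIF1A is the oxygen-regulated subunit of the hypoxia factor and, like BMAL1 and CLOCK, a helix-loop-helix PAS protein. TCF7L2 is a DNA-binding partner of beta-catenin in Wnt signalling, HES1 is a repressor induced by Notch, and JUNB is a subunit of AP-1. BCL6 is a zinc finger repressor that acts downstream of cytokines, ESRRA is an orphan nuclear receptor that drives genes of mitochondrial energy metabolism, RARG is a receptor for retinoic acid, and NR6A1 is an orphan nuclear receptor known as a repressor in germ and stem cells.

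The sequence before the start site is shown for 3 of the genes because they differ in where the BMAL1 peak stood: close to the start site in both lists for Hif1a, with an NIH3T3 CLOCK peak, close to it in both lists for Junb, with no CLOCK peak, and far from it for Bcl6. Each line gives the 250 bases before the start site, 5′ to 3′ on the strand of the gene, from the RefSeq table of assembly GRCm38.p6. Those of Hif1a are chr12:73907617-73907866 on the plus strand, those of Junb are chr8:84978749-84978998 on the minus strand, and those of Bcl6 are chr16:23988853-23989102 on the minus strand. For Bcl6 the window of the other RefSeq start site is not printed. Capitals mark the E-box CACGTG and its variant AACGTG in Hif1a and Bcl6. In Junb, which had neither, nor CACGTT, they mark matches to the looser forms CACGNG and CNCGTG.
Hif1a: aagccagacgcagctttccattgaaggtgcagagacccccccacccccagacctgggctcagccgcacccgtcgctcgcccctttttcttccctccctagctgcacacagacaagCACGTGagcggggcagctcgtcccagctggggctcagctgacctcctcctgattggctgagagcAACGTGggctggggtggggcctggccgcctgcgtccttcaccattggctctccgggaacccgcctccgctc
Junb: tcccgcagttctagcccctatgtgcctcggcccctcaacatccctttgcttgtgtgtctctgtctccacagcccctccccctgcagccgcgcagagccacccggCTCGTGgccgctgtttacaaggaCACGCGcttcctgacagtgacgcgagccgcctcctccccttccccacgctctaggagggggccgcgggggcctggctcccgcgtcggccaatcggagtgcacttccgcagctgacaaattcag
Bcl6: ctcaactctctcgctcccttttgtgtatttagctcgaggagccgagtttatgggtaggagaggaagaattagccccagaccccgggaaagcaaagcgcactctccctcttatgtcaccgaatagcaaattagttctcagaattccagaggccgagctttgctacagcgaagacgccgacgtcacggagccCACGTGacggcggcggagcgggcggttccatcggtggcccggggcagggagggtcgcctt

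In the Hif1a sequence CACGTG lay 135 to 130 bases before the RefSeq start site and AACGTG 71 to 66 bases before it. Counted from the start site that the authors' distance implies, the Hif1a BMAL1 peak covered 196 to 145 bases before the start and the NIH3T3 CLOCK peak 104 to 55 bases before it. If both start sites are the same base, which could not be checked across builds, CACGTG lay between the 2 peaks and AACGTG inside the CLOCK peak. In the Junb sequence CTCGTG lay 146 to 141 bases before the RefSeq start site and CACGCG 123 to 118 bases before it, while the BMAL1 peak covered 182 to 128 bases before the authors' start. In Bcl6 CACGTG lay 60 to 55 bases before the start site shown, although the BMAL1 peak of this gene was far away. RefSeq start-site windows, which run from 250 bases before to 50 after a start, were in the table for 8 of the 9 genes, with 14 windows in all, and Hes1 was missing. CACGTG, searched on both strands as 1 palindrome, was in 2 of the 14 (14.3%, exact Clopper-Pearson 95% interval 1.78 to 42.8), against 7.15% of all 32851 windows. With CACGTT and AACGTG, which are each other's reverse complement, added, the count was 3 of 14 (21.4%, 4.66 to 50.8), against 11.4% of all windows. The added window belonged to Rarg, with CACGTT 174 to 169 bases before the start. With the looser forms CACGNG and CNCGTG, searched on both strands and including every CACGTG, it was 6 of 14 (42.9%), against 27.5%. A match is a description of the letters and does not show binding there.

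Tsc22d3 carried a pair of BMAL1 peaks far from the annotated start site, both of them in both lists. The peak at chromosome X, 137045749 to 137045837, lay 31415 bp downstream of that start, and the peak at 137054895 to 137054971 lay 22275 bp downstream. Their centres were 9140 bp apart. Both distances point to the same start site, and RefSeq lists 3 start windows for this gene, spread over 57854 bp, so the peaks may lie nearer to a start site other than the one the authors used. An NIH3T3 CLOCK peak stood at each, 51.5 bp away at the first, sharing 18 bp, and 18.5 bp away at the second, sharing 45 bp. These were the only BMAL1 peaks of the NIH3T3 list within 100 kb, and the same held in the liver list. The liver CLOCK list had 1 peak on chromosome X, 44719602.5 bp from the nearer of the 2 sites, so liver CLOCK was listed at neither.

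Hif1a had a single BMAL1 peak, the same interval in both lists, at chromosome 12, 75008695 to 75008746, 171 bp upstream of the start site. The NIH3T3 CLOCK peak there, at 75008787 to 75008836, had its centre 91 bp away on the side of the start site, and the intervals did not touch but left a gap of 40 bp. It is therefore not counted when intervals must overlap, unlike the CLOCK peaks of Tsc22d3 and Tcf7l2. The nearest liver CLOCK peak was 1189689 bp away.

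Tcf7l2 had 1 BMAL1 peak, in the NIH3T3 list alone, at chromosome 19, 56104076 to 56104125, 131057 bp downstream of the start site. Only 1 of the 463 NIH3T3 peaks lay farther from its start site. RefSeq gives this gene a length of 191863 bp and 2 start sites 153511 bp apart. Counted from the upstream start the peak would fall within that length, and counted from the downstream start beyond it. No source used here says which of them the authors took, and whether the peak lies inside the gene was not checked. The NIH3T3 CLOCK peak at 56104124 to 56104173 lay 48 bp away and shared 2 bp with the BMAL1 peak. The nearest liver BMAL1 peak was 836810 bp away.

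Hes1 had peaks in both lists at different places. In NIH3T3 cells 2 peaks lay on either side of the start site, at chromosome 16, 30064402 to 30064451, 44 bp upstream, and 30064480 to 30064529, 34 bp downstream. Their centres were 78 bp apart. In liver the single Hes1 peak lay at 30045787 to 30045836, 18659 bp upstream of the same start. Thus Hes1 counts as a gene of both contexts by name, while its nearest NIH3T3 and liver peaks had centres 18615 bp apart. None of the 3 sites had a CLOCK peak nearby, the closest being an NIH3T3 CLOCK peak 594055 bp away.

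Junb had 1 BMAL1 peak, the same interval in both lists, at chromosome 8, 87502746 to 87502800, 155 bp upstream of the start site. It resembled the Hif1a peak in position and in being in both lists, but its nearest NIH3T3 CLOCK peak was 236440.5 bp away and its nearest liver CLOCK peak 3718598.5 bp away. In liver the locus held further BMAL1 peaks that the NIH3T3 list lacked. A peak of Prdx2, which encodes a peroxiredoxin, stood 4921.5 bp from the Junb peak, and 2 peaks of Hook2, which encodes a microtubule adaptor, stood 11683 and 12093.5 bp from it. The Hook2 peaks lay 39 bp upstream and 364 bp downstream of their own start site, and the Prdx2 peak 2496 bp downstream of its start. No other protein-coding gene lies between Junb and either of them in RefSeq.

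Bcl6 had a single peak, in the liver list, at chromosome 16, 24121053 to 24121102, 132139 bp upstream of the start site. Of the 1254 liver peaks, 26 lay farther from their start sites. No other BMAL1 peak of either list lay within 100 kb, and the nearest CLOCK peaks were 2773795 bp away in NIH3T3 cells and 1879139 bp away in liver. At such a distance the gene name is the authors' annotation and does not show which gene the site acts on.

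Among the 3 nuclear receptor genes, Esrra had peaks in liver alone and Rarg and Nr6a1 in NIH3T3 cells alone. The 2 Esrra peaks lay at chromosome 19, 6996559 to 6996608 and 6996878 to 6996927, at 285 and 604 bp upstream of the start site, and their centres were 319 bp apart. The nearest NIH3T3 BMAL1 peak was 344936 bp away. The Nr6a1 peak lay at chromosome 2, 38782249 to 38782298, 478 bp upstream of the authors' start site. RefSeq lists 2 start sites of Nr6a1 that are 141946 bp apart. A BMAL1 peak of Gm13496, present in both lists, lay 71212 bp from it. The Rarg peak lay at chromosome 15, 102069955 to 102070004, 4041 bp downstream of the authors' start site. RefSeq lists 2 start sites of Rarg that are 11022 bp apart, so this distance depends on which of them the authors took. Rarg stood next to 2 more peaks found in NIH3T3 cells alone, both annotated to Itgb7, which encodes an integrin subunit and is the next protein-coding gene in RefSeq. These lay 3393 and 8787 bp from the Rarg peak, and the closer of them was 4220 bp upstream of the Itgb7 start site. The nearest liver BMAL1 peak, of Csad, was 50561 bp from the Rarg peak. None of the Esrra, Rarg or Nr6a1 sites had a CLOCK peak within 5 kb in either context.

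**Figure D1:**
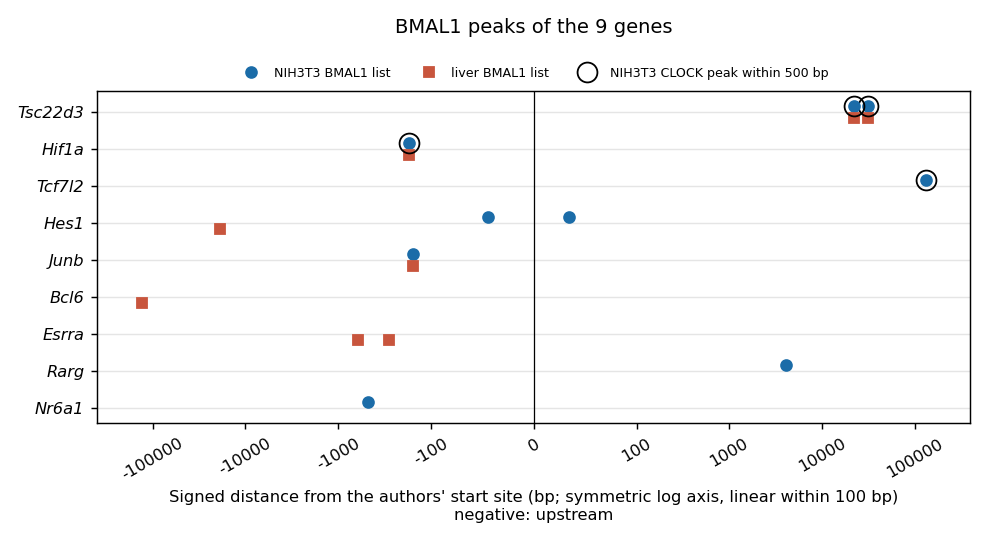
Signed distance of every BMAL1 peak of the 9 genes from the authors' start site, in bp on a symmetric log axis that is linear within 100 bp, with NIH3T3 peaks as circles, liver peaks as squares and a ring where an NIH3T3 CLOCK peak lay within 500 bp. Peaks of Hif1a and Junb lay close upstream in both lists, those of Tsc22d3 were downstream in both, and the peaks of Hes1 differed in place between the lists.

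**Figure D2:**
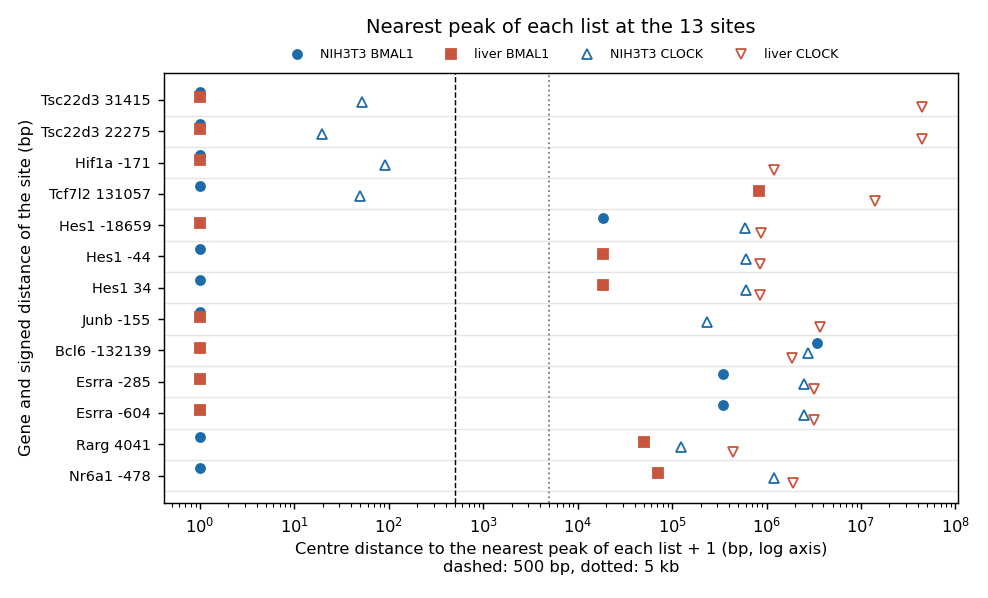
Distance in bp, plus 1 and on a log axis, from the centre of each of the 13 sites to the nearest peak of each list, with filled symbols for BMAL1 and open symbols for CLOCK. The NIH3T3 CLOCK peaks of 4 sites lay at most 91 bp away, those nearest to the other 9 sites lay at least 122998 bp away, and no liver CLOCK peak was closer than 437833 bp.

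The peaks of the 9 genes were set beside the whole lists, counting as partners peaks with centres within 500 bp. Among their NIH3T3 BMAL1 peaks, 4 of 9 (44.4%, exact Clopper-Pearson 95% interval 13.7 to 78.8) were matched in the liver BMAL1 list, where 59.2% of the list did. In liver 4 of 8 (50.0%, 15.7 to 84.3) had an NIH3T3 partner, where 21.8% of the list did. The choice of genes used these names, so nothing is read from either count. Within 1 kb of the start site lay 5 of the 9 NIH3T3 peaks (55.6%, 21.2 to 86.3), against 71.7% of that list, and 4 of the 8 liver peaks (50.0%, 15.7 to 84.3), against 44.7%. The median distance was 478 bp for the NIH3T3 peaks of these genes and 219 bp for the list, and 9631.5 bp and 2182 bp in liver. Upstream of the start site lay 4 of 9 NIH3T3 peaks (44.4%), against 65.0% of the list, and 6 of 8 liver peaks (75.0%, 34.9 to 96.8), against 54.1%. Over 10 kb away lay 4 of the 8 liver peaks (50.0%), against 32.3%. Only Tcf7l2 in NIH3T3 cells and Bcl6 in liver had a peak over 100 kb away, as had 0.648% and 3.43% of the lists. With so few peaks, these position intervals were too wide to tell the genes from their list.

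CLOCK stood at 4 of the 9 NIH3T3 peaks (44.4%, 13.7 to 78.8), namely both of Tsc22d3 and those of Hif1a and Tcf7l2, where 22.0% of the NIH3T3 list had CLOCK. The interval includes that share. The peaks of Rarg, Nr6a1, Junb and Hes1 made up the other 5. Over the 102 NIH3T3 BMAL1 peaks with CLOCK, the median distance to it was 40.2 bp and 83 of them had it within 100 bp, a range that holds all 4 CLOCK peaks of these genes. NIH3T3 CLOCK also stood at 3 of the 8 liver BMAL1 peaks (37.5%, 8.52 to 75.5), where 6.54% of the liver list did, and all 3 were intervals that both BMAL1 lists share. The lower bound is above that share, but 2 of the 3 peaks belong to Tsc22d3 and the genes were chosen with these results known, so no test is drawn from it. No liver peak of these genes had liver CLOCK, 0 of 8, which allows a share of up to 37.5% when the limit is set at 3 counts of the total (the exact interval in the plot of shares ends at 36.9%), and 4.31% of the liver list had it. Nor did any of the 9 NIH3T3 peaks, which allows up to 33.3% by the same limit (33.6% by the exact interval), where 10.2% of that list had a liver CLOCK peak. The absence of liver CLOCK at these peaks was therefore not distinguishable from the list.

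Of the 4 sites with CLOCK, 3 were far from the annotated start site. In the NIH3T3 list 56 of 463 peaks (12.1%) lay over 10 kb from it, 3 of them at Tsc22d3 and Tcf7l2. All 3 had CLOCK (100%, 29.2 to 100), where 28.6% of those 56 peaks did (16 peaks), or 13 of 53 (24.5%) without these 3. Of the 3, 2 belong to Tsc22d3, and the genes were chosen with these results known, so nothing is read from this share. A liver BMAL1 partner was also found at 16 of the 56 (28.6%), among them both Tsc22d3 peaks. Both a liver BMAL1 partner and NIH3T3 CLOCK were present at 6 of the 56 (10.7%), and 2 of these 6 were those of Tsc22d3. The remaining 4 peaks, singled out only once their values were known, were annotated to Galnt2, Gm5218, Lsm3 and the clock output gene Hlf, with 1 peak each, at 29020, 23783, 83131 and 27255 bp. Near start sites the 9 genes had CLOCK at 1 of 5 NIH3T3 peaks within 1 kb, that of Hif1a, and the list had it at 21.1% of such peaks. A liver BMAL1 partner was found at 2 of these 5, those of Hif1a and Junb, and at 69.3% of such peaks in the list.

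The sites in both BMAL1 lists were wider than the rest. The 4 entries at Tsc22d3, Hif1a and Junb were 89, 77, 52 and 55 bp wide, and the other 9 sites were all 50 bp wide. These made up 5 of 9 NIH3T3 peaks, where 63.3% of the list was 50 bp wide, and 4 of 8 liver peaks, where 83.7% was. A peak of another gene lay within 100 kb of 2 of the 9 NIH3T3 peaks, those of Rarg and Nr6a1, against 10.4% of the list. In liver this held for 3 of 8, the peak of Junb and both of Esrra, against 20.9%, the neighbour of Esrra being Rps6ka4, 81374.5 bp from the closer peak.

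**Figure D3:**
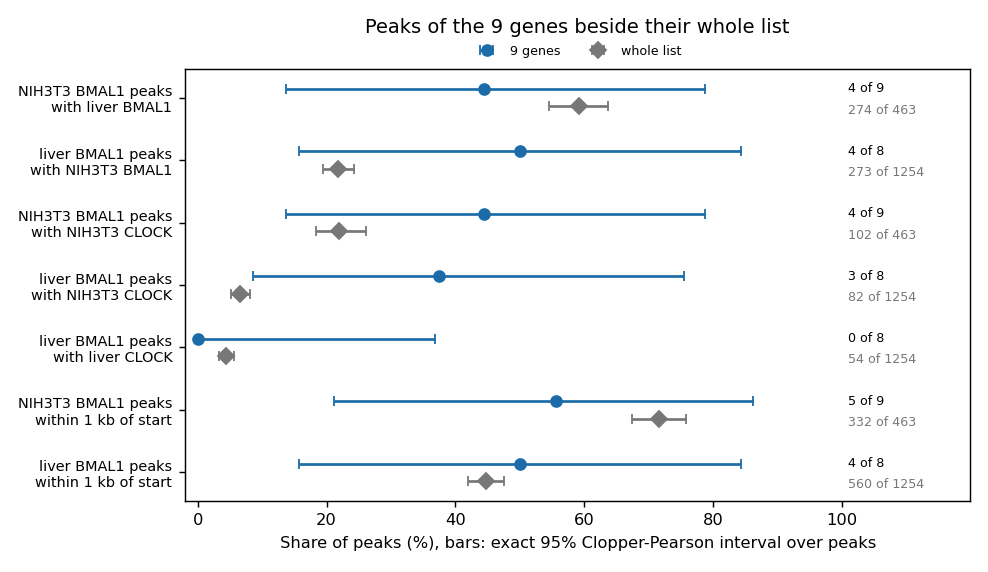
Share of BMAL1 peaks in percent for the 9 genes (circles) and for the whole list they belong to (diamonds), with exact Clopper-Pearson 95% intervals as bars and the counts at the right. The intervals of the 9 genes are wide, and for liver peaks with liver CLOCK the value is 0 of 8.

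Genes were compared by a pattern of 4 yes or no values, namely an NIH3T3 BMAL1 peak, a liver BMAL1 peak, and NIH3T3 or liver CLOCK within 500 bp of any of their BMAL1 peaks, and then by the distance of their nearest peak to the start site. Of 1137 genes with a BMAL1 peak, Tsc22d3 and Hif1a each shared a pattern with 34 others, each other included: BMAL1 in both contexts and NIH3T3 CLOCK. Nearest to Tsc22d3 in distance were Gm5218 (23783 bp), Galnt2 (29020 bp) and Cubn (7220 bp), and nearest to Hif1a were Rhebl1 (157 bp), Pdxk (155 bp) and Tomm20 (154 bp). Hes1 and Junb had BMAL1 in both contexts without CLOCK, each with 137 others, and among the nearest to Junb were Gm17259 and Smad2 at 154 and 147 bp. The pattern does not ask for the same site, so it joins Hes1 with Gm17382 (34 bp), Mettl13 (36 bp) and Utp18 (31 bp), although its own peaks differed between the lists. Tcf7l2, with BMAL1 and CLOCK in NIH3T3 cells alone, shared its pattern with 17 others, of which the nearest, Ppp2r2a, Btbd16 and H2afy2, had peaks at 48201, 45825 and 23818 bp. Bcl6 and Esrra had the most frequent pattern, liver BMAL1 alone, each with 771 others. The nearest to Bcl6 was Esrrg, an estrogen-related receptor gene of the same family as Esrra, at 134998 bp, followed by Slc8a3 (129070 bp) and Cpeb2 (138888 bp), and nearest to Esrra were Ddx50, Mir203 and Mllt1 at 286, 287 and 279 bp. Rarg and Nr6a1 had NIH3T3 BMAL1 alone, each with 133 others. The nearest were Rgs20, Gclc and Tnni1 at 3834, 3730 and 3654 bp for Rarg and Cdk5r1, Irs2 and Gtf2ird2 at 472, 506 and 507 bp for Nr6a1.

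Other genes of the same signalling pathways were looked up in 7 lists holding 170 genes, 161 of them not among the 9. These lists were written with earlier results of these data known, so their counts do not support a statement about any pathway. Of the 161, 6 (3.73%) were annotated to an NIH3T3 BMAL1 peak and 25 (15.5%) to a liver BMAL1 peak, against 1.40% and 3.79% of 21900 protein-coding genes. The list lengths differ, with 463 and 1254 peaks, so the contexts are not compared. Within 10 kb of the start site the counts were 6 and 16 (9.94%), against 1.23% and 2.75% of protein-coding genes, and within 1 kb they were 6 and 12 (7.45%), against 1.02% and 1.87%.

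Of the 16 other glucocorticoid genes, 3 (18.8%) had an NIH3T3 peak and 5 (31.2%) a liver peak, against 1.40% and 3.79% of protein-coding genes. Per1, a clock repressor that glucocorticoids also induce, and Klf9, a Krüppel-like factor, had peaks in both lists within 338 bp of the annotated start sites, unlike the distant pair at Tsc22d3. All 3 Per1 peaks had NIH3T3 CLOCK and 2 of them also had liver CLOCK, while Klf9 peaks had none. Fkbp5, a co-chaperone of the glucocorticoid receptor, had a peak 160 bp upstream of the start site in NIH3T3 cells alone. Fkbp4, a related co-chaperone, had a liver-only peak at 203 bp, and the kinase gene Sgk1 had a liver-only peak at 5226 bp. Nr3c2, which encodes the mineralocorticoid receptor, had a liver-only peak at 82975 bp. Nr3c1, which encodes the glucocorticoid receptor itself, was annotated to no BMAL1 peak.

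The hypoxia list had 1 NIH3T3 gene (4.76%) and 7 liver genes (33.3%) among 21 others, against 1.40% and 3.79% of protein-coding genes. Ankrd37, Ldha and Pdk1, which are targets of the hypoxia factor, had liver-only peaks at 35, 94 and 313 bp, all within 1 kb of the start site like that of Hif1a at 171 bp. Epas1, the paralog of Hif1a, and Vegfa had liver-only peaks at 22817 and 19179 bp, and P4ha1 and Cited2 at 22626 and 171225 bp. Bnip3, a mitophagy gene, had an NIH3T3-only peak at 148 bp. Hif1a was the 1 gene of this list in both BMAL1 lists and the 1 with a CLOCK peak.

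In the Wnt list Dvl2, which encodes a Dishevelled protein, had the same peak in both lists at 56 bp. The receptor genes Fzd5 and Fzd7 and Rnf43, which limits Wnt receptors, had liver-only peaks at 5242, 68733 and 68 bp. None of these had CLOCK, and no other TCF or LEF gene was annotated to a peak. No Notch gene other than Hes1 had a peak, 0 of 19 in either list. With 19 genes, 0 cannot be told from the 1.40% and 3.79% of protein-coding genes with an NIH3T3 or a liver peak. In the AP-1 list Mapk8, which encodes the kinase JNK1, had 2 peaks in both lists at 289 and 352 bp, and Mafk had 2 liver-only peaks at 323 and 458 bp. No other JUN or FOS gene was annotated to a peak.

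The nuclear receptor list covered genes outside the clock and left out the REV-ERB and ROR receptor genes. Among its 48 other receptor and coregulator genes, 0 had an NIH3T3 peak and 7 (14.6%) had a liver peak, against 1.40% and 3.79% of protein-coding genes. With 48 genes, 0 cannot be told from 1.40%. The 2 genes of this list with an NIH3T3 peak, Rarg and Nr6a1, had been chosen by their peaks. In liver, Ppara had 3 peaks, at 813, 2961 and 3156 bp, and Nr2f2, which encodes COUP-TFII, had 2, at 586 and 14241 bp. Rara, the paralog of Rarg, had a liver-only peak at 6370 bp, while the Rarg peak, at 4041 bp, was in the NIH3T3 list alone. Absence from a list of unknown depth and threshold does not show a difference between the contexts. Esrrg, Nr3c2 and the coregulator gene Ncoa2 had liver-only peaks at 134998, 82975 and 13062 bp. None of the peaks named here had CLOCK. In the list around BCL6 the only other gene with a peak was Prdm1, which encodes the repressor BLIMP1, in liver alone at 15800 bp.

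**Figure D4:**
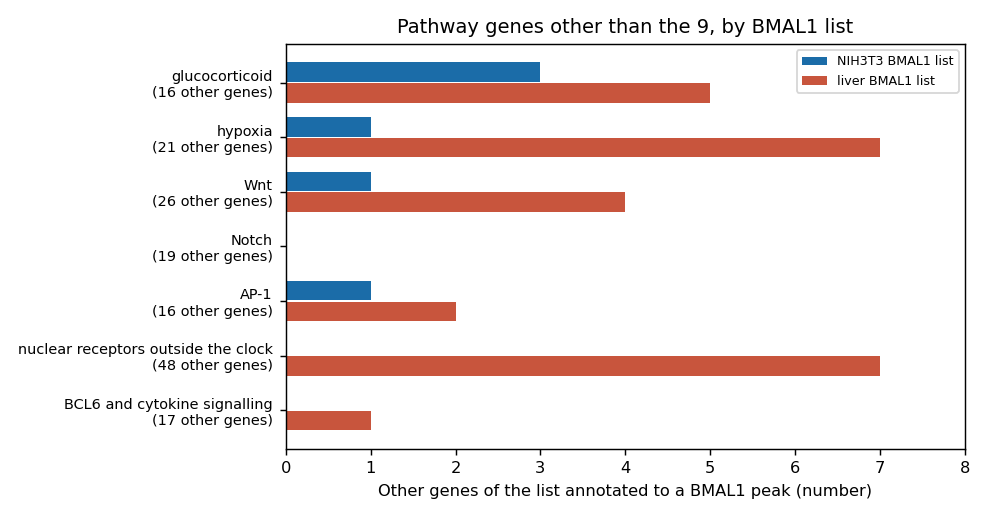
Number of genes other than the 9 in each pathway list that the authors annotated to a BMAL1 peak, in NIH3T3 cells (upper bars) and in liver (lower bars). In liver the hypoxia list had 7 of 21 genes and the nuclear receptor list 7 of 48, and the Notch list had 0 of 19 in both contexts. Of all protein-coding genes 1.40% had an NIH3T3 peak and 3.79% a liver peak. The nuclear receptor list holds genes outside the clock only.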

How the data were processed

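The authors deposited 4 lists of ChIP-seq peaks, for BMAL1 and for CLOCK in NIH3T3 cells and in mouse liver. Bowtie, SAMtools and bedtools and the build mm9 were named, without roles or versions, per the submitters' processing notes. No source used here names the peak caller, its thresholds or the depth. The values are positions, and in the BMAL1 lists a gene and a signed distance in bp to its start site, as deposited. No count, height or score was deposited in these lists, and groups were taken from the sample labels.

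The authors' negative distances were read as upstream: with strands from RefSeq GRCm38.p6, 108 of 169 gene and list pairs with at least 2 peaks pointed to the same start site within 1 bp, and 0 did with the opposite sign. Other genes can have several start sites. Centre distances were computed with pandas 2.3.3, NumPy 2.4.6 and SciPy 1.17.1 under Python 3.11.15, figures drawn with matplotlib 3.10.9, and partners taken within 500 bp. RefSeq GRCm38.p6 served for names, gene order and start-site sequences, never for mm9 coordinates. On simulated lists of 463 and 1254 peaks with planted partners, 0 peaks were misassigned. No test was run, because peaks are not replicates. The 9 genes, the pathway lists and all comparisons were chosen with earlier results of these data known. Named genes were the 9, pathway genes with a peak, the 3 genes most like each, and genes with BMAL1 peaks within 100 kb, of which 2 are not reported here. A few alternatives in distance, promoter window and motif were tried. The gene column of the NIH3T3 CLOCK list was not used.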

Additional observations from a re-analysis of the deposited data

How the results depend on the processing

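Of 36 alternative settings, 5 of them chosen after seeing the data, 33 gave shares inside the main interval or counts within 1.5 times the main count. The main intervals were wide, such as 13.7 to 78.8 for 4 of 9 peaks, so a share could change much and still pass. A CLOCK share of 20.0% in place of 44.4% passed, so this number does not show that the shares are stable. The number of pathway list genes with a liver BMAL1 peak, the 9 genes included, was 31 at any distance, 19 within 10 kb and 15 within 1 kb of the start site. The share of start-site windows with an E-box was 42.9% with the looser forms CACGNG and CNCGTG, which 27.5% of all windows held, against 14.3% with CACGTG. When intervals had to overlap, 3 of 9 NIH3T3 peaks had CLOCK (33.3%), where 12.5% of the list did. Without the entries common to both BMAL1 lists 1 of 5 had it (20.0%), where 14.5% of the 200 remaining list entries did. Joining peaks within 1 kb left 8 NIH3T3 and 7 liver loci, because the close peaks of Hes1 and of Esrra merged. With 9 and 8 peaks, a share cannot be told from its list unless it is far from it. No paired analysis was possible because the lists hold no value per library or replicate.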

Other observations

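The gene column of the NIH3T3 CLOCK list followed position at some of these genes and not at others. Both CLOCK peaks at Tsc22d3 were named Tsc22d3. The CLOCK peak at Hif1a was named Eya2, a gene of chromosome 2, while the entry named Hif1a lay on chromosome 2, at 165471918 to 165471967. The CLOCK peak at Tcf7l2 had no gene name, and the entry named Tcf7l2 lay on chromosome 1, at 19800566 to 19800615. Over the whole list, 90 of 619 peaks whose gene name matched a RefSeq symbol (14.5%) lay on the chromosome of that gene.

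Among the 263 entries common to the top of both BMAL1 lists, 122 were 50 bp wide, against 171 of the 200 further NIH3T3 entries and 928 of the 991 further liver entries.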
